A study of Homo sapiens with 18 samples.

Results

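The expression of 10 genes of the extrinsic apoptosis pathway was followed in 3 human cancer cell lines: the ligand TNFSF10, the receptors FAS, TNFRSF1A, TNFRSF10A, TNFRSF10B and TNFRSF10D, the adaptor FADD, the initiator caspases CASP8 and CASP10, and the inhibitor CFLAR. The genes were chosen by symbol for their place in the pathway, and all 10 were listed in each of the 3 deposited tables, among 25673 names in the RKO table, 19881 in that of COLO 201 and 19977 in that of H1975. RKO and COLO 201 come from colon cancer, H1975 from lung cancer. All carried the tetracycline-inducible construct tet-MUC1shRNA, which encodes a short hairpin RNA against MUC1, together with puromycin resistance. In each line 3 columns came from cells given 500 ng/ml doxycycline, which switches the hairpin on, and 3 from cells given 0.1% DMSO as vehicle, all in medium with 10% serum. The time of exposure is not given in the sources used here, nor is whether a line was 1 clone or a pool. Cells with a control hairpin and doxycycline were not analysed here, so the effects of the hairpin and of doxycycline cannot be told apart. The labels say that cells were cultured in triplicate, and the p-values measure the spread between these columns and nothing wider. In such bulk RNA, fewer cells with a transcript and less of it per cell cannot be told apart.

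Death receptors are membrane proteins of the tumour necrosis factor receptor family whose cytoplasmic part carries a death domain. When a ligand such as Fas ligand or TRAIL (the product of TNFSF10) clusters them, the adaptor FADD binds and brings in procaspase-8 and procaspase-10, which activate each other and then cleave the executioner caspases, directly or by way of the mitochondria through BID. CFLAR encodes c-FLIP, a relative of caspase-8 whose long form lacks the catalytic cysteine and which occupies the same complex, and TNFRSF10D is a decoy that binds TRAIL with only a truncated death domain. Most of these steps are set by protein assembly and cleavage, which transcript levels do not measure.

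MUC1 served as the check of the column headings. MUC1 was at 0.108, 0.105 and 0.204 TPM with doxycycline in RKO, against 15.2, 1.24 and 1.03 TPM with vehicle. It averaged 1.78 ± 0.25 TPM with doxycycline in COLO 201 and 13.9 ± 0.94 TPM with vehicle, and 8.01 ± 1.35 against 97.5 ± 9.98 TPM in H1975 (SD, n = 3 each). On the log2(TPM + 1) scale it was lower with doxycycline by limma in all 3 lines, with changes of -1.88 in RKO (adjusted p = 0.00272), -2.43 in COLO 201 (adjusted p = 3.49e-10) and -3.46 in H1975 (adjusted p = 4.13e-11). The RKO call was lost under several alternatives, and without vehicle column 1 the gene was under the minimum for testing. The RKO columns read as vehicle are headed DOX with no sign, so that reading is inferred. RKO vehicle column 1 stood apart from the other 5. It held 361 TPM of VIM, against at most 2.46 TPM in any other RKO column, and the 9 fibroblast and endothelial markers summed to 182.8 TPM there, against 0.0042 to 0.0199 TPM with doxycycline and at most 0.0094 TPM in the other vehicle columns. Of these 9 markers 3 averaged at least 1 TPM over the RKO columns, and PECAM1, CDH5, VWF and PDGFRB averaged under 0.1 TPM. Because vehicle column 1 stood apart, RKO changes are given with and without it, those of the wider pathway as a group. Of 6 colon markers, 1 averaged at least 1 TPM in RKO, and KRT20, GPA33, LGALS4, CDX1 and VIL1 averaged under 0.1 TPM. Of 5 epithelial markers there, 3 averaged at least 1 TPM, and CDH1 and KRT19 were under 0.1 TPM. In COLO 201 4 of 6 colon markers averaged at least 1 TPM, and 3 of 6 lung markers did in H1975. The colon markers of COLO 201 summed to 138 to 140.2 TPM with doxycycline, against 198 to 203 TPM with vehicle. In H1975 the lung markers summed to 2051 to 2186 TPM with doxycycline, against 2576 to 3142 TPM with vehicle, and the fibroblast and endothelial markers to 17.2 to 20.9 TPM, against 45.2 to 47.3 TPM. In COLO 201 the sum of 8 leukocyte and erythroid markers was 594 to 626 TPM with doxycycline, against 1219 to 1223 TPM with vehicle, with PTPRC and CD3E under 0.1 TPM. Small noncoding RNA genes took 70.9% to 78.5% of RKO TPM with doxycycline, against 67.5% to 71.7% with vehicle, and mitochondrially encoded genes took 15.2% to 16.8% against 18.4% to 21.1% in COLO 201 and 14.7% to 16.0% against 16.1% to 21.1% in H1975. The part of these shifts in the results was not tested, apart from the removal of small noncoding or mitochondrially encoded genes among the alternatives.

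Changes below are doxycycline minus vehicle on the log2(TPM + 1) scale, with a standard error and a limma p adjusted over all genes tested in the line, that is, those averaging at least 1 TPM. A change is called at an adjusted p under 0.05. In RKO 18.1% of the 10551 genes tested were called, 2.09% higher and 16.1% lower. In COLO 201 61% of 11566 were called, 45.9% higher and 15% lower, and in H1975 38.5% of 12359 were called, 23.9% higher and 14.6% lower. The median change of all genes tested was -0.26 in RKO, 0.12 in COLO 201 and 0.06 in H1975. Each line was therefore also read after its columns were rescaled by their median ratio, which put these medians at -0.00, -0.01 and 0.02. In COLO 201 the rescaling turned 5312 higher and 1740 lower calls into 3153 higher and 3435 lower calls. In RKO it turned 220 higher and 1695 lower calls into 1453 higher and 1468 lower calls. For low genes a change on this scale is smaller in size than the log2 ratio of the TPM.

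Arms without overlap, all 3 doxycycline columns on 1 side of all 3 vehicle columns, were seen in 36.3% of genes in RKO (3.9% higher, 32.4% lower), 65.1% in COLO 201 (48.5% higher, 16.6% lower) and 49.1% in H1975 (30.7% higher, 18.4% lower).

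Against that background 0 of the 8 genes tested in RKO rose and 1 (TNFRSF1A) fell in limma as deposited (at an unadjusted p under 0.05, 3 higher and 2 lower), while 4 rose and 0 fell after rescaling, where 13.8% of all genes rose and 14% fell. Without vehicle column 1 none of 9 was called by limma as deposited (2.1% of all genes higher and 18.2% lower), and without it and after rescaling 7 of 9 rose and 2 fell, where 29.1% of all genes rose and 29.8% fell. In COLO 201 3 of 10 rose (FAS, CASP8 and CASP10) and 3 fell (TNFSF10, TNFRSF1A and FADD). After rescaling 3 rose and 5 fell there, with TNFRSF10B and TNFRSF10D added, where 3153 of 11558 genes rose and 3435 fell. In H1975 4 of 9 rose (TNFRSF10A, TNFRSF10D, CASP8 and CASP10) and 0 fell in limma (5 higher and 0 lower at an unadjusted p under 0.05). For the counts at an unadjusted p no share of all genes is given. They cannot be set against the shares above, which are for an adjusted p. The median change of the genes tested was 0.17 in RKO, 0.02 in COLO 201 and 0.18 in H1975, to be read beside the medians of all genes above. The genes under the minimum were TNFSF10 and CASP10 in RKO and TNFSF10 in H1975. CASP10 in RKO averaged 0.978 TPM and TNFSF10 in H1975 0.994 TPM, just outside the limit, and the lowest gene inside it was CFLAR in RKO at 1.40 TPM.

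**Figure D1:**
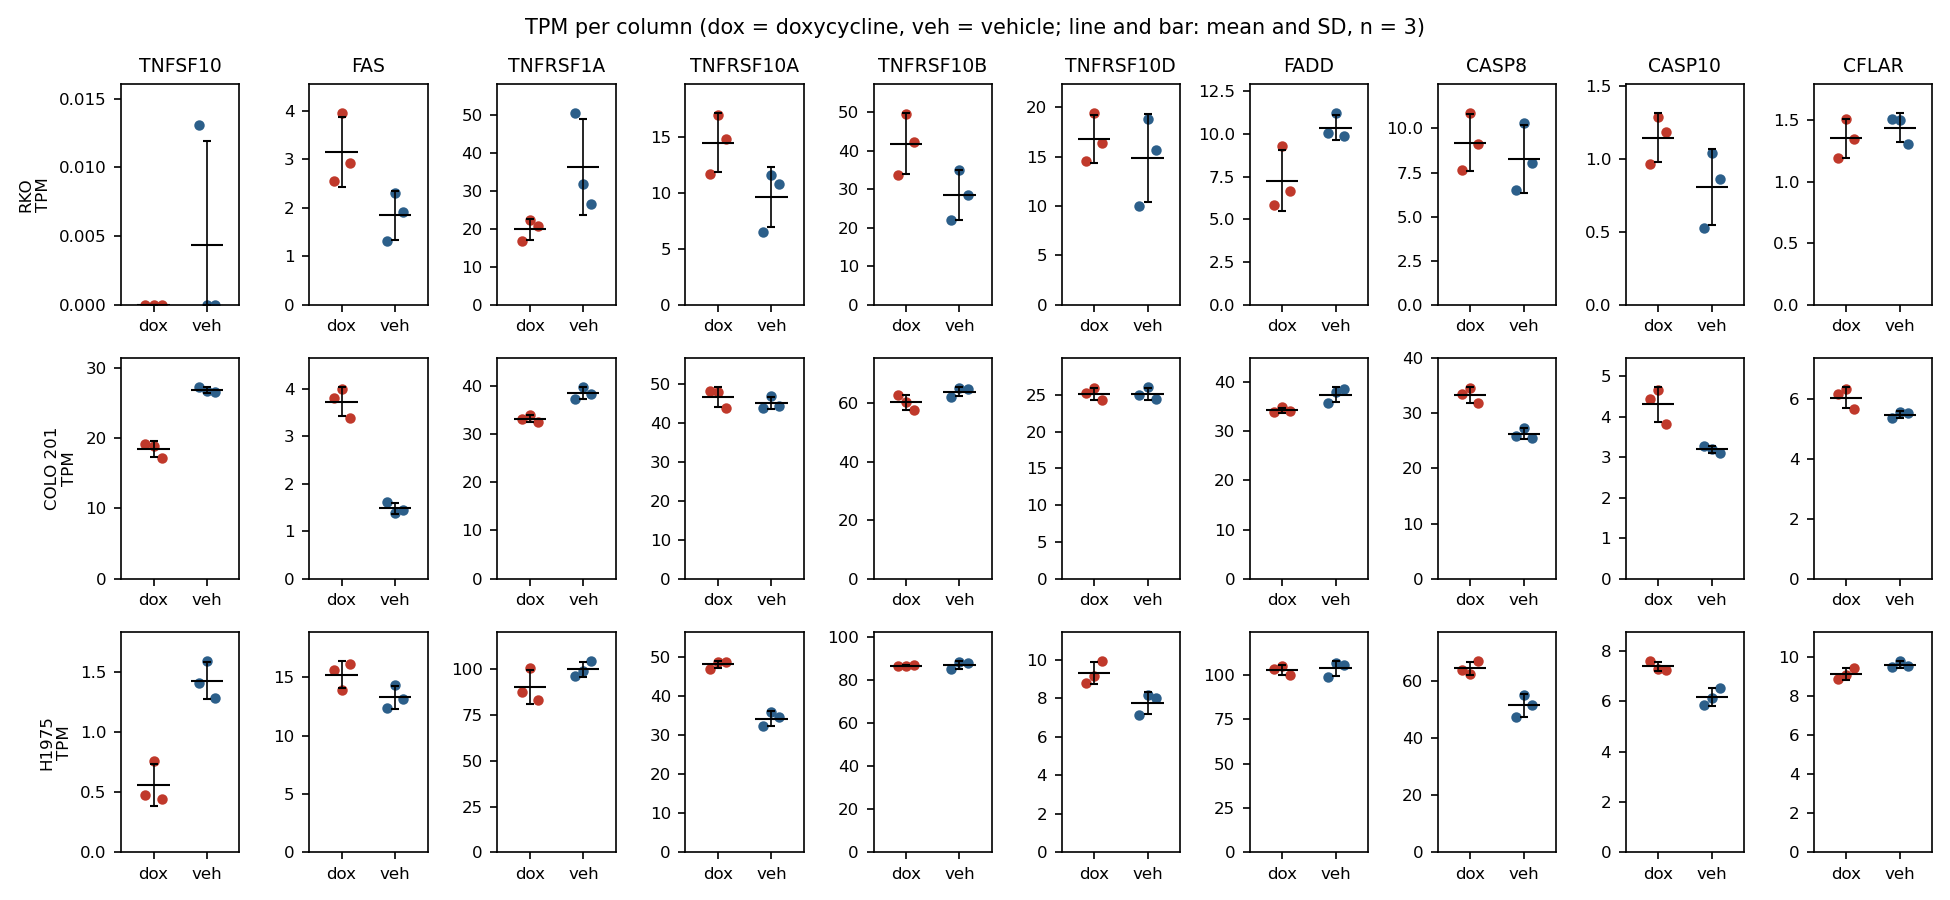
TPM of the 10 genes (columns of panels) in RKO, COLO 201 and H1975 (rows), with doxycycline in red on the left and vehicle in blue on the right of each panel; points are single columns, bars the mean and SD of 3, and each panel has its own axis from 0. FAS in COLO 201 lies between 3.39 and 3.99 TPM with doxycycline and at or below 1.61 TPM with vehicle.

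Promoter windows of 300 bases, from 250 before to 50 after a gene's start, are given for TNFSF10, FAS and CASP8, each of them called in COLO 201 with arms apart (RefSeq, GRCh38.p14). Where several starts were listed the most upstream window is shown. Capitals mark matches, on either strand, to GAAANNGAAA (the interferon-stimulated response element type), TTCNNNGAA (the STAT type), GGGCGG (the Sp1 type) or TATAAA. GGGAATTTCC and GGGACTTTCC (the NF-kB type) and the p53 decamer were also searched and had no match in these 3 windows.
TNFSF10, chr3:172523381-172523680, minus strand: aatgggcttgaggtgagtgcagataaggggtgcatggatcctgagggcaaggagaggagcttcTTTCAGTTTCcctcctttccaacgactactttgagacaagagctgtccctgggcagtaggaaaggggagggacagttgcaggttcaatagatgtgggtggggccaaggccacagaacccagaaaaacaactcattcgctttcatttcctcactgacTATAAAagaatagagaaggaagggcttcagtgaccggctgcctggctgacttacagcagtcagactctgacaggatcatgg
FAS, chr10:88990548-88990847, plus strand: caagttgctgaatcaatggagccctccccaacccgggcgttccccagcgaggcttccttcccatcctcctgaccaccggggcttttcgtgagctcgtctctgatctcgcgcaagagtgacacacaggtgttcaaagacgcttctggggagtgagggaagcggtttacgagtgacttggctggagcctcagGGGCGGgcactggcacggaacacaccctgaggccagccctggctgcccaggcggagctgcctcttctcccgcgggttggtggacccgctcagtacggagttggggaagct
CASP8, chr2:201233213-201233512, plus strand: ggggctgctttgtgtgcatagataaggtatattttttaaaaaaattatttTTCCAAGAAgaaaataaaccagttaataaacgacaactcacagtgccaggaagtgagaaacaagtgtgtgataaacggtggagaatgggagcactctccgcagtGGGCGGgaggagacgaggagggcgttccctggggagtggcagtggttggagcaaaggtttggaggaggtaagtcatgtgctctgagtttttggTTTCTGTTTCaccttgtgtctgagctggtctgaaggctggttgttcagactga
The TNFSF10 window held GAAANNGAAA as its reverse complement and TATAAA, which began at position -31 from the gene start. FAS held 1 GGGCGG, and CASP8 held GAAANNGAAA, TTCNNNGAA and GGGCGG once each. Over 35116 windows of the same length, 3.574% held GAAANNGAAA, 7.657% TTCNNNGAA, 44.95% GGGCGG, 11.53% TATAAA, 0.336% GGGAATTTCC or GGGACTTTCC and 6.632% the p53 decamer. Among the other listed windows of these genes, the p53 decamer was in 1 of the 3 FAS windows and 1 of the 3 CASP8 windows, and TATAAA in 1 of the 3 CASP8 windows. TNFRSF1A, FADD and CASP10 were also called in COLO 201 with arms apart, and their windows are not printed. The window of TNFRSF1A held none of the motifs searched, and that of FADD held 2 GGGCGG and no other motif. No window was listed for CASP10. All these matches describe the letters and show nothing about binding.

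TNFSF10, the TRAIL ligand, was lower with doxycycline in both lines that expressed it. In COLO 201 it was at 19.3, 19.0 and 17.2 TPM with doxycycline, against 27.3, 26.7 and 26.6 TPM with vehicle. Every doxycycline column lay below every vehicle column. It fell by 0.52 ± 0.05 on the log2 scale (SE, limma adjusted p = 3.73e-06), to 0.687 times the vehicle mean, and rescaling made this -0.65 (limma adjusted p = 1.28e-06). In H1975, where the gene is little expressed, it was at 0.477, 0.761 and 0.447 TPM with doxycycline, against 1.41, 1.59 and 1.28 TPM with vehicle. The arms did not overlap, and in the fit with no minimum TPM the change was -0.64 ± 0.09 (SE, limma adjusted p = 0.00314). In RKO it was listed at 0 in all 3 doxycycline columns and in vehicle columns 2 and 3, and at 0.0131 TPM in vehicle column 1.

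FAS, the receptor of Fas ligand, rose in COLO 201. It was at 3.80, 3.99 and 3.39 TPM with doxycycline, against 1.61, 1.39 and 1.45 TPM with vehicle. The doxycycline columns were all above the vehicle columns, at 2.52 times their mean, and the change was 0.93 ± 0.08 (SE, limma adjusted p = 8.22e-07; 0.84 after rescaling). This was the largest change, in either direction, among the 10 genes in COLO 201. In RKO FAS was at 2.55, 3.95 and 2.93 TPM with doxycycline, against 1.31, 2.31 and 1.91 TPM with vehicle. There was no overlap between the arms, yet the change of 0.54 ± 0.20 was not called as deposited (limma adjusted p = 0.0617). After rescaling it was 0.75 ± 0.12 (limma adjusted p = 0.00736), and without vehicle column 1 it was 0.40 as deposited (limma adjusted p = 0.0967) and 0.62 after rescaling (limma adjusted p = 7.25e-06). Leaving out vehicle column 2 gave a call as deposited as well.

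In H1975, where FAS stood at the highest vehicle level of the 3 tables (13.3 ± 0.996 TPM, SD, n = 3; the tables were normalised separately), it was at 15.6, 13.9 and 16.1 TPM with doxycycline, against 12.4, 14.4 and 13.1 TPM with vehicle. The arms overlapped and the change of 0.18 was not called (95% interval 0.01 to 0.36, limma adjusted p = 0.0902), although it was called without doxycycline column 2 (0.24, limma adjusted p = 0.0257). FAS shares 380 exonic bases with ACTA2, a smooth muscle actin gene on the opposite strand, and no source used here says whether counting used the strand of the stranded libraries. In H1975 ACTA2 averaged 10.4 ± 1.23 TPM with doxycycline and 9.73 ± 0.132 TPM with vehicle, against 15.2 and 13.3 TPM of FAS in the same arms (SD, n = 3 each). In RKO it averaged 0.985 ± 0.254 TPM with doxycycline and 1.20 ± 1.06 TPM with vehicle, and in COLO 201 0.233 ± 0.0250 TPM with doxycycline and 0.109 ± 0.00297 TPM with vehicle.

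TNFRSF1A, which encodes the main receptor for tumour necrosis factor (TNFR1), was lower in the colon lines. In COLO 201 the gene was at 33.1, 33.8 and 32.4 TPM with doxycycline, against 37.2, 39.7 and 38.3 TPM with vehicle. No doxycycline column reached a vehicle column, and it fell by 0.21 ± 0.04 (SE, limma adjusted p = 0.00133), or by 0.34 after rescaling. In RKO it was at 16.9, 22.3 and 20.7 TPM with doxycycline, against 50.5, 31.8 and 26.5 TPM with vehicle. The arms were apart, and the vehicle column farthest from the doxycycline columns was column 1, the one that stood apart. The change of -0.79 ± 0.23 was called (limma adjusted p = 0.0183), but it was -0.53 without vehicle column 1 (limma adjusted p = 0.0948) and -0.50 after rescaling (limma adjusted p = 0.162). With both steps it was -0.22 (limma adjusted p = 0.00467), and the call as deposited was also lost without doxycycline column 1 or 3, in all under 12 alternatives against 9 where it held. In H1975 it was at 87.4, 101 and 83.2 TPM with doxycycline, against 96.4, 99.2 and 105 TPM with vehicle, and the overlapping arms differed by -0.15 (95% interval -0.31 to 0.02, limma adjusted p = 0.143), a value called without doxycycline column 2 (-0.23, limma adjusted p = 0.0207).

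The TRAIL receptors lie together in 1 gene cluster and are close relatives, so that reads may be split between them in ways the tables do not show. TNFRSF10A also shares 224 and 266 exonic bases with transcripts of the opposite strand, and TNFRSF10B shares 67 with RHOBTB2. TNFRSF10A encodes DR4, a receptor with a full death domain. In H1975 it was at 47.1, 48.7 and 48.7 TPM with doxycycline, against 32.3, 35.9 and 34.7 TPM with vehicle. The doxycycline columns were all higher, at 1.40 times the vehicle mean, and it rose by 0.48 ± 0.07 (SE, limma adjusted p = 0.000119; 0.44 after rescaling). In RKO the receptor was at 11.7, 16.9 and 14.8 TPM with doxycycline, against 6.53, 11.6 and 10.8 TPM with vehicle. The lowest doxycycline column was just above the highest vehicle column, and the change of 0.56 ± 0.21 was not called as deposited (limma adjusted p = 0.0658). It was called after rescaling (0.84 ± 0.18, limma adjusted p = 0.0176), and without vehicle column 1 the change was 0.33 as deposited (limma adjusted p = 0.305) and 0.63 after rescaling (limma adjusted p = 3.77e-06). COLO 201 had it at 48.4, 48.1 and 43.8 TPM with doxycycline, against 44.0, 47.0 and 44.4 TPM with vehicle, so the arms overlapped. The change of 0.05 (95% interval -0.06 to 0.15, limma adjusted p = 0.418) became -0.08 after rescaling and was called in neither case.

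TNFRSF10B encodes DR5, the other TRAIL receptor with a full death domain, and was at a higher vehicle TPM than DR4 in every line. RKO had it at 33.6, 49.4 and 42.4 TPM with doxycycline, against 21.9, 35.1 and 28.6 TPM with vehicle. The arms overlapped by 1 column each, and the change of 0.54 ± 0.23 was not called (limma adjusted p = 0.0942). After rescaling the arms no longer overlapped and the change was 0.84 ± 0.13 (limma adjusted p = 0.00709). Without vehicle column 1 it was 0.37 as deposited (limma adjusted p = 0.263) and 0.68 after rescaling (limma adjusted p = 1.49e-06). In H1975 TNFRSF10B was at 86.6, 86.5 and 86.9 TPM with doxycycline, against 85.0, 88.2 and 88.1 TPM with vehicle. The arms overlapped, and the interval of the change, -0.14 to 0.13 around -0.01, excluded the size seen for TNFRSF10A in the same columns. In COLO 201 DR5 was at 62.9, 60.5 and 57.7 TPM with doxycycline, against 62.3, 65.1 and 64.8 TPM with vehicle. The change of -0.08 was not called as deposited (95% interval -0.18 to 0.01, limma adjusted p = 0.113) and was called after rescaling (-0.21, limma adjusted p = 0.000563).

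TNFRSF10D, the decoy with a truncated death domain, was at 8.80, 9.14 and 9.93 TPM with doxycycline in H1975, against 7.12, 8.15 and 7.99 TPM with vehicle. The arms were again apart and the change was 0.23 ± 0.08 (SE, limma adjusted p = 0.0357). This call held under 8 alternatives and was lost under 7, with an adjusted p from limma between 0.0550 and 0.147: without doxycycline column 1 or 3 or vehicle column 1 or 3, with no minimum TPM, with mitochondrially encoded genes removed and with the column number as a replicate block. The COLO 201 columns had it at 25.2, 26.0 and 24.3 TPM with doxycycline, against 25.0, 26.1 and 24.4 TPM with vehicle. These 2 arms nearly coincided (95% interval -0.10 to 0.10), and rescaling made the change -0.13 (limma adjusted p = 0.0108). The RKO columns had it at 14.6, 19.4 and 16.4 TPM with doxycycline, against 10.0, 18.8 and 15.7 TPM with vehicle, with overlapping arms and a change of 0.20 ± 0.22 (limma adjusted p = 0.538). Without RKO vehicle column 1 the change was -0.04 as deposited (limma adjusted p = 0.914) and 0.26 after rescaling (limma adjusted p = 0.00102).

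FADD, the adaptor that joins the receptors to the caspases, was among the most abundant of the 10 transcripts in H1975, at 103, 105 and 99.7 TPM with doxycycline, against 98.7, 106 and 106 TPM with vehicle. The arms overlapped and the change was -0.01 (95% interval -0.15 to 0.13, limma adjusted p = 0.900). In COLO 201 FADD was at 33.9, 34.9 and 34.1 TPM with doxycycline, against 35.7, 38.1 and 38.6 TPM with vehicle. The arms stood apart and FADD fell by 0.12 ± 0.04 (SE, limma adjusted p = 0.0286), a call lost without doxycycline column 1, vehicle column 2 or vehicle column 3 (limma adjusted p = 0.0806, 0.0916 and 0.127). After rescaling it was -0.25 (limma adjusted p = 0.000399). In RKO the adaptor was at 5.84, 9.30 and 6.69 TPM with doxycycline, against 10.1, 11.2 and 9.86 TPM with vehicle. No column of 1 arm lay within the other, and the change of -0.48 ± 0.19 was not called (limma adjusted p = 0.0807). Without RKO vehicle column 1 it was -0.50 as deposited (limma adjusted p = 0.0978) and -0.21 after rescaling (limma adjusted p = 0.0134). FADD shares 1011 exonic bases with an antisense gene, AP000879.1, so its reads may not all be its own.

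CASP8, the initiator caspase recruited through FADD, rose in COLO 201 and H1975 by nearly the same amount. In COLO 201 CASP8 was at 33.6, 34.7 and 31.8 TPM with doxycycline, against 25.9, 27.4 and 25.6 TPM with vehicle. In H1975 it was at 64.0, 62.5 and 67.2 TPM with doxycycline, against 47.5, 55.3 and 51.9 TPM with vehicle. In both lines all doxycycline columns were above all vehicle columns. The change was 0.33 ± 0.05 in COLO 201 (SE, limma adjusted p = 9.04e-05) and 0.32 ± 0.07 in H1975 (SE, limma adjusted p = 0.00355), and it was called under all 15 alternatives in each line, between 0.20 and 0.36 and between 0.26 and 0.37. In RKO the caspase was at 7.65, 10.9 and 9.10 TPM with doxycycline, against 6.48, 10.3 and 8.04 TPM with vehicle. There the arms overlapped, and the change of 0.14 ± 0.20 was not called (limma adjusted p = 0.626), whereas after rescaling it was 0.41 ± 0.11 (limma adjusted p = 0.0399). Without RKO vehicle column 1 the change of CASP8 was near 0 as deposited (limma adjusted p = 0.999) and 0.29 after rescaling (limma adjusted p = 0.000896).

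CASP10, the second initiator caspase of the complex, was expressed at a far lower level than CASP8 in each line. In COLO 201 CASP10 was at 4.43, 4.66 and 3.82 TPM with doxycycline, against 3.27, 3.19 and 3.11 TPM with vehicle, without overlap. It rose by 0.34 ± 0.07 (SE, limma adjusted p = 0.00181). In H1975 it was at 7.59, 7.29 and 7.24 TPM with doxycycline, against 5.85, 6.11 and 6.53 TPM with vehicle. These arms did not overlap either and the change was 0.23 ± 0.08 (SE, limma adjusted p = 0.0334), a call that held under 9 alternatives and was lost under 6, without doxycycline column 1, vehicle column 1 or vehicle column 2 (limma adjusted p = 0.137, 0.115 and 0.0698), with no minimum TPM (limma adjusted p = 0.0528), with mitochondrially encoded genes removed (0.0506) and with the replicate block (0.0836). In RKO, under the minimum, it was at 0.963, 1.29 and 1.18 TPM with doxycycline, against 0.525, 1.04 and 0.865 TPM with vehicle. The lowest of these 6 values was vehicle column 1, and with no minimum TPM the change was 0.25 (limma adjusted p = 0.340). Without that column CASP10 passed the minimum, with a change of 0.13 as deposited (limma adjusted p = 0.500) and 0.29 after rescaling (limma adjusted p = 0.00101).

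CFLAR, the gene of c-FLIP, was not called in any line as deposited. It was at 6.16, 6.31 and 5.65 TPM with doxycycline in COLO 201, against 5.35, 5.55 and 5.51 TPM with vehicle, and at 8.89, 9.09 and 9.48 TPM with doxycycline in H1975, against 9.50, 9.82 and 9.57 TPM with vehicle. In both lines the arms stood just apart, above vehicle in COLO 201 and below it in H1975. The changes were 0.12 (95% interval -0.02 to 0.26, limma adjusted p = 0.115) and -0.07 (95% interval -0.22 to 0.09, limma adjusted p = 0.496). The COLO 201 value was called without doxycycline column 3 (0.16, limma adjusted p = 0.0431), and after rescaling it was 0.01 with overlapping arms. In RKO CFLAR was at 1.20, 1.52 and 1.35 TPM with doxycycline, against 1.51, 1.50 and 1.31 TPM with vehicle, and the arms overlapped (95% interval of the change -0.49 to 0.39, limma adjusted p = 0.880). Without RKO vehicle column 1 its change was -0.03 as deposited (limma adjusted p = 0.895) and 0.15 after rescaling (limma adjusted p = 0.0372).

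CFLAR, CASP10 and CASP8 lie next to each other in this order on the plus strand of chromosome 2 (GRCh38, GENCODE), at 201116104 to 201176687, 201182881 to 201229406 and 201233443 to 201287711. The gaps are 6193 and 4036 bases, and no other protein-coding gene lies between the first and the last. CASP8 and CASP10, the 2 caspase genes of this row, rose in COLO 201 and in H1975, and CFLAR was called in neither. CFLAR shares 777 exonic bases with CFLAR-AS1 and 1488 with a processed pseudogene on the opposite strand, and CASP8 shares none with another gene.

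**Figure D2:**
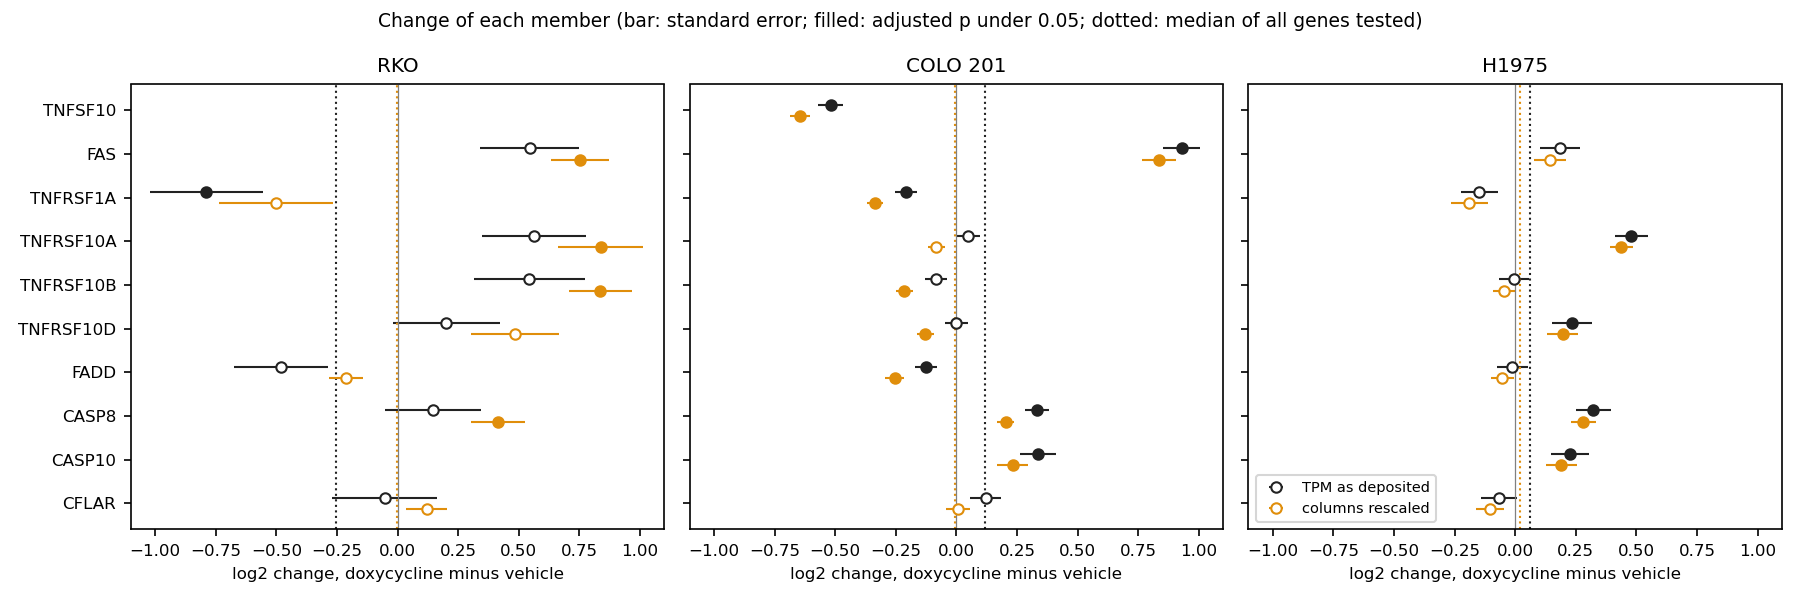
Change of each gene, doxycycline minus vehicle on the log2(TPM + 1) scale, in RKO, COLO 201 and H1975, from TPM as deposited (black) and after rescaling the columns (orange); bars are standard errors, filled points have a limma adjusted p under 0.05, and dotted lines mark the median of all genes tested. CASP8 is filled on the higher side in COLO 201 at 0.33 and in H1975 at 0.32, and FAS in COLO 201 lies at 0.93; genes under the minimum TPM have no point.

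Ratios within a column do not depend on how the column was scaled, and they were compared with an exact two-sided permutation test, which for 3 against 3 columns cannot go below p = 0.1. The ratio of CFLAR to CASP8, inhibitor to initiator, was 0.139, 0.145 and 0.141 with doxycycline in H1975, against 0.200, 0.178 and 0.185 with vehicle. In COLO 201 it was 0.183, 0.182 and 0.177 with doxycycline, against 0.207, 0.203 and 0.215 with vehicle. Both lines had every doxycycline ratio below every vehicle ratio, at 0.758 and 0.869 times the vehicle value (exact permutation p = 0.1 in each, the smallest possible). In RKO the ratio was 0.157, 0.140 and 0.148 with doxycycline, against 0.234, 0.145 and 0.162 with vehicle, so the arms overlapped (exact permutation p = 0.3). The highest RKO ratio was that of vehicle column 1, and without that column the log2 difference was -0.05, against -0.26 with it.

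The ratio of TNFRSF10A to TNFRSF10B, DR4 to DR5, was 0.544, 0.563 and 0.560 with doxycycline in H1975, against 0.380, 0.407 and 0.394 with vehicle. The arms were clearly separate, at 1.41 times the vehicle value (exact permutation p = 0.1). In COLO 201 it was 0.769, 0.794 and 0.759 with doxycycline, against 0.706, 0.723 and 0.686 with vehicle, again without overlap (exact permutation p = 0.1). In RKO, where both transcripts averaged higher with doxycycline, the ratio averaged 0.346 ± 0.00380 with doxycycline and 0.335 ± 0.0397 with vehicle (SD, n = 3 each, exact permutation p = 0.7). The ratio of the decoy TNFRSF10D to the sum of TNFRSF10A and TNFRSF10B was 0.322, 0.292 and 0.286 with doxycycline in RKO, against 0.352, 0.403 and 0.399 with vehicle. It was lower in every doxycycline column (exact permutation p = 0.1). In H1975 it averaged 0.0689 ± 0.00387 with doxycycline and 0.0638 ± 0.00268 with vehicle (SD, n = 3 each, exact permutation p = 0.1), and in COLO 201 0.235 ± 0.00739 against 0.231 ± 0.00607 (exact permutation p = 0.5). CASP10 to CASP8 averaged 0.125 ± 0.00582 with doxycycline in RKO and 0.0964 ± 0.0138 with vehicle (exact permutation p = 0.1), and its arms overlapped in COLO 201 (exact permutation p = 0.3) and H1975 (exact permutation p = 0.4). Without RKO vehicle column 1 the log2 difference was -0.03 for TNFRSF10A to TNFRSF10B, against 0.05 with it, -0.42 for the decoy ratio, against -0.36, and 0.26 for CASP10 to CASP8, against 0.38. With 12 ratios compared and none able to pass 0.05, these are descriptions of the columns.

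**Figure D3:**
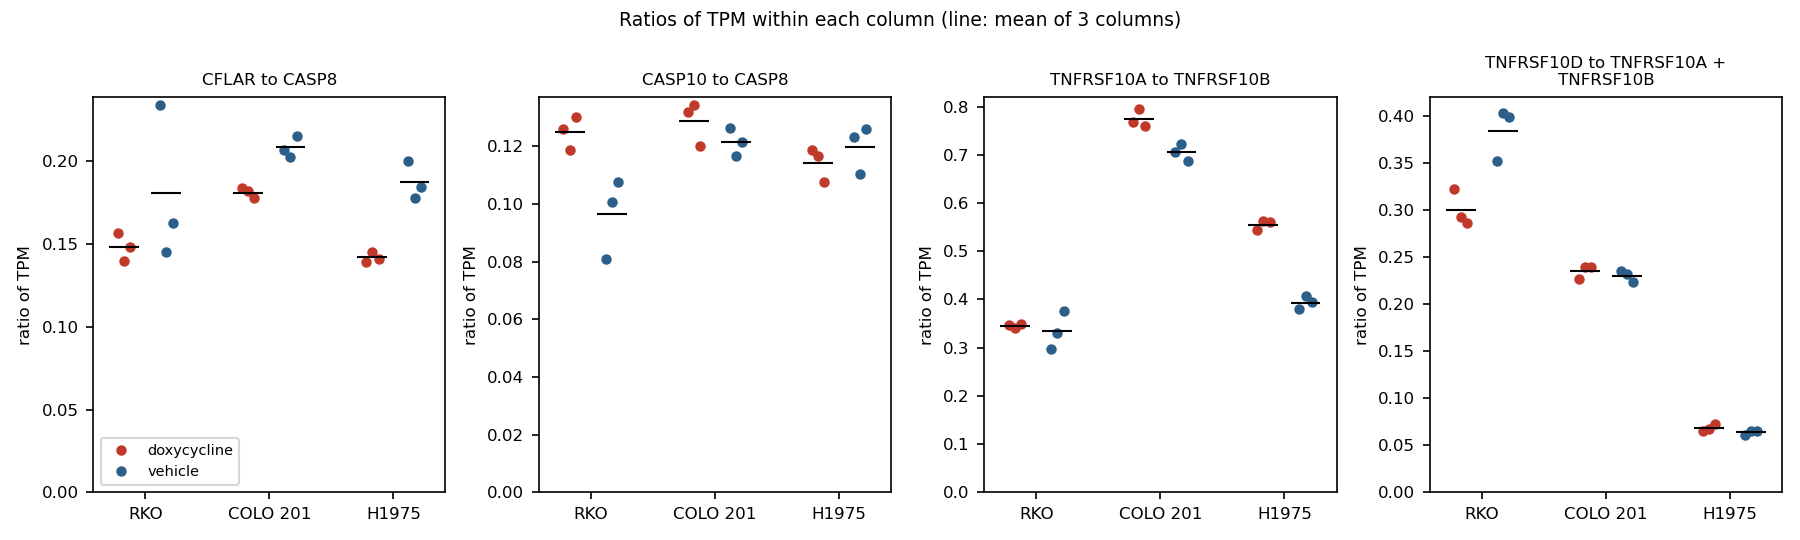
Ratios of TPM within each column in RKO, COLO 201 and H1975, with doxycycline in red on the left and vehicle in blue on the right; points are single columns, lines the mean of 3, and the axes start at 0. The CFLAR to CASP8 ratio is lower in every doxycycline column of COLO 201 (0.177 to 0.183) and H1975 (0.139 to 0.145) than in any vehicle column of the same line.

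Whether a change differed between lines was tested in a joint limma fit of the 18 columns over 9266 genes, which compares changes within tables and not levels. Of the 8 genes in that fit, 3 differed between RKO and COLO 201, where 48.5% of all genes did, 3 differed between RKO and H1975 (41.5% of all genes), and 1 differed between COLO 201 and H1975 (7.22% of all genes). That one was FAS, whose change was 0.93 in COLO 201 and 0.18 in H1975, a difference of 0.75 ± 0.18 (SE, limma adjusted p = 0.0130). TNFRSF10B changed by 0.54 in RKO, against -0.08 in COLO 201 (difference 0.63 ± 0.19, limma adjusted p = 0.0109) and -0.01 in H1975 (difference 0.55 ± 0.19, limma adjusted p = 0.0270). TNFRSF10A changed by 0.56 in RKO and 0.05 in COLO 201 (difference 0.51, limma adjusted p = 0.0452), and rescaling made both TNFRSF10 differences between RKO and COLO 201 larger, at 0.92 and 1.05. TNFRSF1A differed by -0.58 between RKO and COLO 201 (limma adjusted p = 0.0348) and by -0.64 between RKO and H1975 (limma adjusted p = 0.0258), and FADD by -0.47 between RKO and H1975 (limma adjusted p = 0.0273). Rescaling ended these last 3 calls (-0.16, -0.31 and -0.16) and added 3 that involve RKO, TNFRSF10D against COLO 201 (0.61, limma adjusted p = 0.00940), FAS against H1975 (0.61, limma adjusted p = 0.00151) and CFLAR against H1975 (0.22, limma adjusted p = 0.0189). The TNFRSF10A difference between RKO and COLO 201 was lost under 16 alternatives and held under 7. Without RKO vehicle column 1, as deposited, it was 0.28 (limma adjusted p = 0.126), and the TNFRSF10B differences were 0.46 from COLO 201 (limma adjusted p = 0.0146) and 0.38 from H1975 (limma adjusted p = 0.0475). In the same fit TNFRSF1A differed by -0.32 from COLO 201 (limma adjusted p = 0.0861) and by -0.38 from H1975 (limma adjusted p = 0.0451), and FADD by -0.49 from H1975 (limma adjusted p = 0.00943). The differences of FAS and FADD between RKO and COLO 201, not called with all columns, were -0.53 and -0.37 and called there (limma adjusted p = 0.00147 and 0.0433). Without that column and after rescaling, they were -0.21 and 0.04 and not called (limma adjusted p = 0.0640 and 0.682). The differences of TNFRSF1A and FADD from H1975 were then -0.03 and -0.16, also not called (limma adjusted p = 0.777 and 0.0778). Called in that fit were the RKO differences of TNFRSF10A (0.71), TNFRSF10B (0.90) and TNFRSF10D (0.39) from COLO 201. Those of FAS (0.48), TNFRSF10A (0.19), TNFRSF10B (0.73) and CFLAR (0.26) from H1975 were called too (limma adjusted p of 9.55e-09 to 0.0181). For CASP8 the difference between COLO 201 and H1975 was 0.01 ± 0.18 (limma adjusted p = 0.982), and for TNFRSF10A between the same lines it was -0.43 ± 0.21 (limma adjusted p = 0.240), or -0.52 after rescaling (limma adjusted p = 0.0259). For CASP10, tested over COLO 201 and H1975 alone, it was 0.11 ± 0.10 (limma adjusted p = 0.405).

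The order of the transcripts at vehicle, in TPM and so per length, differed between the lines. In RKO TNFRSF1A (36.3 ± 12.6 TPM, SD, n = 3) and TNFRSF10B (28.5 ± 6.56 TPM) led with overlapping ranges, and TNFRSF10D, FADD, TNFRSF10A and CASP8, between 8.28 and 14.8 TPM, followed with overlapping ranges between neighbours. FAS and CFLAR, at 1.84 and 1.44 TPM, overlapped as well, and CASP10 and TNFSF10 came last. In COLO 201 TNFRSF10B led at 64.0 ± 1.52 TPM before TNFRSF10A at 45.2 ± 1.63 TPM, without overlap. TNFRSF1A overlapped FADD there, TNFSF10 overlapped CASP8 and CASP8 overlapped TNFRSF10D, and FAS was last at 1.48 ± 0.114 TPM. In H1975 FADD (104 ± 4.24 TPM) and TNFRSF1A (100.1 ± 4.20 TPM) led with overlapping ranges, each later neighbour was clear of the next, and TNFSF10 was last at 1.43 ± 0.154 TPM. With doxycycline FAS in COLO 201, at 3.73 ± 0.307 TPM, reached the range of CASP10, at 4.30 ± 0.430 TPM, and the columns of these 2 genes overlapped.

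The pathway around these genes was described from 7 lists of 57 further genes. The median change of a list lay between -0.35 and 0.04 in RKO, -0.07 and 0.66 in COLO 201, and -0.06 and 0.53 in H1975, to be read beside the medians of all genes (-0.26, 0.12 and 0.06). The highest medians in COLO 201 and H1975 come from lists with only 2 genes and 1 gene tested. Among the other death receptors and decoys, 2 of 7 tested rose and 3 fell in COLO 201 (45.9% and 15% of all genes). After rescaling these counts were 1 and 4. TNFRSF6B, which encodes the secreted decoy DcR3 that binds Fas ligand, averaged 9.62 ± 1.21 TPM with doxycycline in COLO 201 and 23.8 ± 1.58 TPM with vehicle (SD, n = 3 each), a change of -1.23 (limma adjusted p = 1.02e-07). It was also the 1 gene of 6 called in H1975 and went the other way, at 16.3 ± 1.37 TPM with doxycycline and 11.3 ± 0.344 TPM with vehicle (change 0.49, limma adjusted p = 0.000271). TNFRSF11B, which encodes osteoprotegerin, a secreted receptor that binds RANKL and TRAIL, averaged 22.3 ± 1.29 TPM with doxycycline in COLO 201 and 11.0 ± 0.516 TPM with vehicle (change 0.96, limma adjusted p = 5.22e-08). EDAR, the receptor for ectodysplasin, was lower there (change -0.57, limma adjusted p = 4.80e-06). In RKO 2 of the 9 were tested and 0 called by limma.

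FASLG, the ligand of FAS, was the 1 of 2 other death ligands tested in COLO 201 that was called. It averaged 7.74 ± 0.453 TPM with doxycycline in COLO 201 and 2.23 ± 0.346 TPM with vehicle (SD, n = 3 each), and it rose by 1.44 ± 0.08 (SE, limma adjusted p = 4.02e-08; 1.33 after rescaling). FAS, FASLG and TNFRSF6B, receptor, ligand and decoy, were thus all called in that line, the first 2 higher and the last lower with doxycycline. They come from separate lists, and 61% of all genes tested were called there. Of the 7 genes tested in the list of TNFRSF6B, 3 fell and 2 rose, among the latter TNFRSF11B (change 0.96). None of the 5 other ligands reached the minimum in RKO or H1975.

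Of 13 genes of the TNFR1 complex and its ubiquitin regulators, 2 rose and 2 fell of 11 tested in RKO (2.09% and 16.1% of all genes). In COLO 201 4 rose and 1 fell of 13 (45.9% and 15%), and in H1975 3 rose and 1 fell of 13 (23.9% and 14.6%). After rescaling these counts were 4 and 2 in RKO, 1 and 3 in COLO 201, and 2 and 2 in H1975. CYLD, a deubiquitinase that trims the chains on RIPK1, averaged 6.25 ± 1.32 TPM with doxycycline in RKO and 2.62 ± 0.302 TPM with vehicle (change 0.99, limma adjusted p = 0.000415), and 25.4 ± 2.01 against 15.6 ± 1.41 TPM in H1975 (change 0.67, limma adjusted p = 3.79e-05). RBCK1, the HOIL-1 subunit of the linear ubiquitin ligase, rose in RKO (change 1.00, limma adjusted p = 0.00149), and its partners SHARPIN and RNF31 rose in COLO 201 (changes 0.28 and 0.18, limma adjusted p = 0.000119 and 0.0116). The RNF31 change was 0.06 and not called after rescaling. OTULIN, a deubiquitinase for linear chains, fell in RKO (-0.77, limma adjusted p = 0.00347) and in COLO 201 (-0.22, limma adjusted p = 0.00559). In H1975 BIRC3, the ubiquitin ligase cIAP2, rose by 0.51 (limma adjusted p = 0.00175) and TRADD, the TNFR1 adaptor, fell by 0.30 (limma adjusted p = 0.00873).

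MLKL, the executor of necroptosis, rose in COLO 201 (10.7 ± 0.792 TPM with doxycycline and 7.55 ± 0.420 TPM with vehicle, change 0.45, limma adjusted p = 9.15e-05) and in H1975 (29.8 ± 0.545 against 20.4 ± 0.714 TPM, change 0.53, limma adjusted p = 4.80e-05). RIPK3, the kinase that activates MLKL, rose in COLO 201 (change 0.37, limma adjusted p = 0.000379) and did not reach the minimum in H1975. Of the 9 genes of the mitochondrial arm, 6 rose and 1 fell in COLO 201 (45.9% of all genes rose and 15% fell), 4 rose and 0 fell in H1975 (23.9% and 14.6%), and 0 rose and 2 fell in RKO (2.09% and 16.1%). After rescaling these counts were 4 and 3, 3 and 1, and 3 and 2. BAK1, a pore-forming BCL-2 relative, rose in COLO 201 by 0.63 (limma adjusted p = 5.42e-07), and HTRA2, a mitochondrial protease, rose there by 0.29 (limma adjusted p = 0.000239) and in H1975 by 0.45 (limma adjusted p = 0.000248). CYCS, the gene of cytochrome c, fell in COLO 201 by 0.36 (limma adjusted p = 2.57e-05) and in RKO by 0.93 (limma adjusted p = 0.00312). APAF1, which assembles with cytochrome c, was also called lower in RKO (-0.63, limma adjusted p = 0.0170). In H1975 XIAP, a caspase inhibitor, rose by 0.32 (limma adjusted p = 0.00781) and DIABLO, its antagonist, by 0.25 (limma adjusted p = 0.00884).

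Of the 8 executioner caspases and substrates, 0 rose and 1 fell in RKO (2.09% and 16.1% of all genes). In COLO 201 3 rose and 1 fell (45.9% and 15%), and in H1975 2 rose and 2 fell (23.9% and 14.6%). After rescaling these counts were 0 and 1, 2 and 2, and 2 and 3. PARP1, a DNA repair enzyme that executioner caspases cleave, rose in COLO 201 by 0.46 (limma adjusted p = 6.29e-07) and in H1975 by 0.35 (limma adjusted p = 0.000692) and fell in RKO by 0.66 (limma adjusted p = 0.0384). DFFB, the caspase-activated nuclease, rose in COLO 201 by 0.39 (limma adjusted p = 6.44e-05), and GSN, the actin-severing gelsolin, fell in H1975 by 0.57 (limma adjusted p = 6.36e-05). Among 10 other regulators, 0 rose and 2 fell of 8 tested in RKO. In COLO 201 3 rose and 1 fell of 8, and in H1975 1 rose and 2 fell of 9, to be read beside the same shares of all genes. After rescaling these counts were 1 and 1 in RKO, 2 and 3 in COLO 201, and 1 and 3 in H1975. PEA15, a death effector domain protein that binds FADD and caspase-8, averaged 81.8 ± 2.72 TPM with doxycycline in COLO 201 and 58.8 ± 0.657 TPM with vehicle (change 0.47, limma adjusted p = 9.84e-07), and FAF1, a FAS-binding protein, rose by 0.34 (limma adjusted p = 3.57e-05). TNFAIP8 fell in COLO 201 by 0.30 (limma adjusted p = 0.00429) and was called lower in RKO (-0.89, limma adjusted p = 0.0138), as was CASP2 (-0.61, limma adjusted p = 0.0403). TNFAIP8 in RKO was at 3.03 TPM in vehicle column 1, against 1.37 and 1.29 TPM in the other vehicle columns; it was under the minimum without that column and not called after rescaling (-0.76, limma adjusted p = 0.0608). In H1975 CASP4, an inflammatory caspase, was at 285 ± 6.35 TPM with doxycycline and 191 ± 13.2 TPM with vehicle (change 0.57, limma adjusted p = 2.08e-05), and FAIM and ARAP1 fell by 0.40 and 0.22 (limma adjusted p = 0.00417 and 0.0313). With RKO vehicle column 1 left out, as deposited, CYLD (0.94), RBCK1 (0.84), OTULIN (-0.72), CYCS (-0.79), APAF1 (-0.60) and CASP2 (-0.72) were still called in RKO (limma adjusted p of 0.000142 to 0.0169), and PARP1 was not (-0.60, limma adjusted p = 0.0590).

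**Figure D4:**
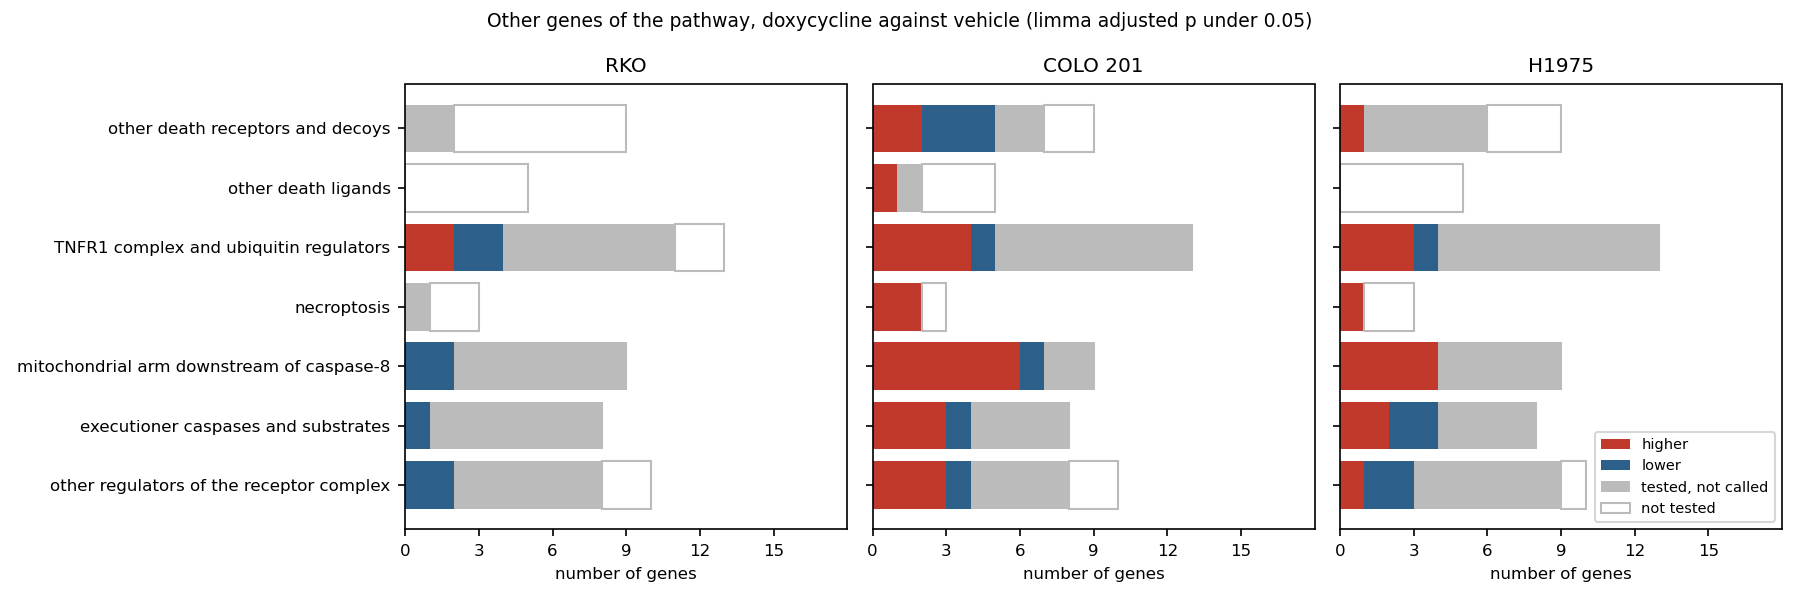
Number of genes of 7 further pathway lists that were higher (red), lower (blue) or not called (grey) with doxycycline, or not tested (white), in RKO, COLO 201 and H1975, at a limma adjusted p under 0.05. The mitochondrial arm had 6 genes higher in COLO 201, 4 in H1975 and 0 in RKO, from TPM as deposited, where 45.9%, 23.9% and 2.09% of all genes were higher.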

How the data were processed

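Total RNA of RKO, COLO 201 and H1975 cells was sequenced from TruSeq Stranded mRNA libraries, per the labels' protocols. The authors used STAR, DESeq2 and GRCh38, with no role or version stated, per the submitters' processing notes. The authors deposited 1 table of TPM per line, with 6 columns each adding up to 1000000. TPM keep no read totals, so depth is unknown; the steps of low values put the columns of a line within 2.10-, 2.28- and 2.20-fold of each other in relative depth in RKO, COLO 201 and H1975, and no interval for counting error can be given. Arms were read from the authors' column headings, since all 18 sample records carry 1 agent label, and the column numbers could not be tied to single samples. In COLO 201, 28 date-named entries (at most 0.0684% of TPM) were left out.

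Genes averaging at least 1 TPM over the 6 columns of a line entered limma (version 3.58.1, R version 4.3.3) as log2(TPM + 1), with two-sided tests, with a trend in the prior variance and Benjamini-Hochberg adjustment over all genes tested in the line. The method was tested on simulated data with independent noise for each gene. These held no shift of a whole column and no column that stood apart, so they do not vouch for the calls in RKO. Differences between lines came from a joint limma fit, and ratios were compared with exact permutation tests in scipy 1.17.1. All 10 genes and MUC1 are named, and of each further list at most 3 called genes per line, those with the smallest adjusted p. Genes of these lists that the rule picks but the text does not name are not reported here. The genes and lists were chosen with earlier results of these data known. Alternatives were other pseudocounts (0.1 and 5), other minimums, rescaling by the median ratio, removal of small noncoding or mitochondrially encoded genes, no trend, column weights, a replicate block and leaving out each column. The motifs were searched by exact letters on both strands.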

Additional observations from a re-analysis of the deposited data

Results flagged for a closer look

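Of the changes that could be set side by side, 7 differed between a pair of lines in the joint limma fit. FAS changed more in COLO 201 than in H1975, by 0.75 on the log2 scale. Its doxycycline columns lay above its vehicle columns in 3 of 3 columns of COLO 201, and the arms overlapped in H1975. TNFRSF10B changed more in RKO than in COLO 201, by 0.63, and more than in H1975, by 0.55. TNFRSF10A changed more in RKO than in COLO 201, by 0.51. That call was lost under 16 of the alternatives and held under 7. TNFRSF1A changed by -0.58 relative to COLO 201 and by -0.64 relative to H1975 in RKO, and FADD by -0.47 relative to H1975.

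The differences of TNFRSF10B and FAS were called under rescaling too, at 1.05 for TNFRSF10B between RKO and COLO 201, 0.88 between RKO and H1975, and 0.69 for FAS. So was the TNFRSF10A difference between RKO and COLO 201, at 0.92 (limma adjusted p = 0.000356). Those of TNFRSF1A and FADD were not. RKO vehicle column 1, where the fibroblast and endothelial markers summed to 182.8 TPM, entered each difference that involves RKO. Without it, as deposited, the TNFRSF10A difference was 0.28 and not called (limma adjusted p = 0.126), and those of TNFRSF10B were still called (0.46 and 0.38). Without it and after rescaling, TNFRSF1A differed by 0.11 between RKO and COLO 201 (limma adjusted p = 0.297). TNFRSF10A differed by 0.71 between the same lines in that fit (limma adjusted p = 3.61e-08). The TNFRSF10B differences there were 0.90 from COLO 201 and 0.73 from H1975 (limma adjusted p = 5.98e-10 and 9.55e-09).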

How the results depend on the processing

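The limits are few columns, unknown depth and, in RKO, 1 column that stood apart. In COLO 201 the 7052 genes called and the 6 called members, both directions together, kept within 1.5 times under every alternative run. The split by direction moved: after rescaling 3153 genes were higher and 3435 lower, against 5312 and 1740 as deposited. The called members went from 3 higher and 3 lower to 3 higher and 5 lower. The MUC1 change stayed called in COLO 201 and in H1975. CASP8 in COLO 201 and H1975, FAS, TNFSF10, TNFRSF1A and CASP10 in COLO 201 and TNFRSF10A in H1975 were called under every alternative that tested them. The cause of the shifts below was not tested.

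In RKO, 1915 genes and 1 member were called. A pseudocount of 0.1 gave 2371 of 10551 genes and 3 members, and a minimum of 5 TPM 1487 of 6457 genes and 2 members. No minimum gave 28 of 18329 genes and 0 members, and rescaling 2921 of 10517 genes and 4 members. Removal of small noncoding RNA genes gave 2848 of 12244 genes and 3 members, and column weights 6853 of 10551 genes and 5 members. The MUC1 change in RKO, -1.88 (limma adjusted p = 0.00272), was not called with a pseudocount of 5 (-0.83), with no minimum (-1.88), rescaled (-1.77) or without small noncoding RNA genes (-2.77). Leaving out 1 RKO column, with and without rescaling, gave 595 to 6055 genes, 0 to 9 members and MUC1 changes of -2.40 to -1.72. That MUC1 range leaves out the omission of vehicle column 1, without which the gene was under the minimum. MUC1 was at 15.2 TPM in that column, against 1.24 and 1.03 TPM in the other vehicle columns. In H1975 column weights gave 8221 genes, and leaving out 1 column gave 3075 to 5206 genes and 2 to 7 members.

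Some values near 0 changed sign. CFLAR in RKO was 0.12 rescaled and 0.15 without small noncoding RNA genes. In COLO 201 TNFRSF10A was -0.082 and TNFRSF10D -0.13 rescaled, and -0.018 and -0.065 without mitochondrially encoded genes. Leaving out 1 column gave -0.040 to 0.60 for TNFRSF10D, -0.00058 to 0.51 for CASP8 and -0.10 to 0.15 for CFLAR in RKO, -0.022 to 0.025 for TNFRSF10D in COLO 201, -0.024 to 0.0030 for TNFRSF10B and -0.046 to 0.0084 for FADD in H1975, and -0.026 to 0.14 for the log2 ratio of TNFRSF10A to TNFRSF10B in RKO.

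Whether the column numbers pair the columns is not settled: same-numbered columns correlated between -0.415 and 0.292. The best match carried the same number for RKO columns 1 and 2, COLO 201 column 3 and H1975 column 1, and another number for the rest. With the column number as a replicate block RKO had 4 called members, beside 2415 of 10551 genes called. The MUC1 change there was -1.88 (limma adjusted p = 0.114). H1975 had 2 called members with the block, beside 2209 genes higher and 1529 lower of 12359. The members whose change differed between COLO 201 and H1975 numbered 2 with the block, 2 rescaled, 2 with the minimum set in these 2 lines alone and 5 without RKO vehicle column 1 and rescaled (the block, the last setting and the minimum in 2 lines were chosen after seeing the data, as was leaving out RKO vehicle column 1 for the wider pathway). TNFRSF1A then differed by 0.11 between RKO and COLO 201. Leaving out an RKO column changes no value of COLO 201 or H1975, only the genes tested and the pooled spread of the joint fit. Leaving out 1 column gave 1 to 4 members between RKO and COLO 201, 1 to 3 between RKO and H1975, and 1 to 2 between COLO 201 and H1975. The share of all genes that differed is not given under these settings, so none of these counts of members can be set against it.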
